A study of Caenorhabditis elegans with 12 samples.

Results

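Loss of RDE-4 was followed in worms with mildly reduced insulin/IGF-1 signaling. Antisense small RNA counts of all 32238 genes in the deposited table were compared between 3 libraries of age-1(hx546); rde-4(ne301) double mutants and 3 libraries of age-1(hx546) single mutants, 6 of the 12 small RNA libraries of the series. The remaining 6 libraries, from rde-4(ne301) and from N2 wild type (WT) worms, are used here only to ask whether loss of RDE-4 acted differently without age-1(hx546). All strains of Caenorhabditis elegans were grown at 20 °C on OP50 bacteria to the first day of adulthood, before embryos could be seen, and RNA was taken from whole bulk populations labelled as biological replicates. Both strains of the main comparison carry age-1(hx546), which by the study's account lowers insulin/IGF-1 signaling moderately, and rde-4(ne301) is described there as a null allele. Whole worms hold soma, sperm and oocytes together, so fewer cells of a type and less small RNA per cell cannot be told apart.

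RDE-4 is a protein that binds double-stranded RNA and works with the ribonuclease Dicer to cut it into small interfering RNAs (siRNAs). Endogenous siRNAs made with RDE-4 are carried by the Argonaute ERGO-1, which is known for targeting recently duplicated genes, pseudogenes and long intergenic non-coding RNAs, and by the sperm-specific Argonautes ALG-3 and ALG-4, which act on genes of the developing sperm. Dicer also cuts microRNA (miRNA) precursors, a step for which RDE-4 is not needed. AGE-1 is the catalytic subunit of the PI3 kinase in insulin/IGF-1 signaling.

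Each value below is a count of reads that map antisense to an annotated gene. An antisense read of a gene is a sense read of whatever lies on the opposite strand, so genes were sorted by what the annotation places there: 22077 genes had no exon of another gene opposite them, whereas 352 lay opposite a tRNA gene, 43 opposite a miRNA gene, 47 opposite a small nuclear RNA (snRNA) gene and 3 opposite a ribosomal RNA (rRNA) gene. The libraries held 2928614 to 3201678 antisense counts in age-1; rde-4 and 2855165 to 3590005 in age-1. Raw counts set side by side below are read against these totals, which are mostly reads opposite miRNA genes. Other scalings move the comparison. The rde-4 gene itself had 4, 1 and 3 antisense counts in age-1; rde-4 and 4, 3 and 6 in age-1. The age-1 gene had 5, 5 and 9 in the double mutant and 5, 4 and 13 in the single mutant. Both were too low to test, and such counts do not check a genotype.

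Antisense small RNA of genes with nothing annotated opposite them made up a smaller share of the double mutant libraries. It took 2.58%, 3.16% and 3.12% of the counts in age-1; rde-4 (2.95% ± 0.32, SD, n = 3), against 10.8%, 9.88% and 11.8% in age-1 (10.8% ± 0.94, SD, n = 3), a ratio of 0.273. The 3 double mutant libraries all lay below the 3 age-1 libraries (two-sided exact permutation test p = 0.1, the smallest that 3 against 3 libraries allow). In the other strains the share was 4.76% ± 0.38 in rde-4 and 8.20% ± 1.66 in WT (SD, n = 3 each), a ratio of 0.581 (exact p = 0.1).

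Reads opposite protein-coding genes shrank in a like way, to 0.571% ± 0.0787 in age-1; rde-4, against 1.80% ± 0.223 in age-1 (SD, n = 3 each, ratio 0.317, exact p = 0.1), and those opposite other non-coding RNA genes took 0.193% ± 0.0288 and 0.413% ± 0.0528 (ratio 0.466, exact p = 0.1). Classes opposite miRNA and structural RNA genes differed from these. Reads opposite miRNA genes took 62.5% ± 2.01 of the counts in age-1; rde-4 and 70.4% ± 9.28 in age-1 (SD, n = 3 each, exact permutation p = 0.4), and the libraries overlapped. Genes were placed in this class by exon overlap, and where in the gene a read lies was not checked. The class also holds the ERGO-1 target F39E9.7, with 2, 3 and 2 counts in age-1; rde-4 and 141, 148 and 169 in age-1. The 3 highest such loci were T09B4.14, opposite mir-1, K01F9.6, opposite mir-80, and F16A11.6, opposite mir-71. T09B4.14 had 668150, 657616 and 779234 counts in the double mutant and 772164, 674156 and 1074122 in age-1. Reads opposite tRNA genes took 28.4%, 19.5% and 17.7% in age-1; rde-4 and 9.25%, 23.9% and 5.64% in age-1 (exact p = 0.3), age-1 replicate 2 standing above the other age-1 libraries. Reads opposite rRNA genes took 8.08% ± 2.97 in age-1; rde-4 and 1.34% ± 0.58 in age-1, and reads opposite snRNA genes took 0.296% ± 0.085 in age-1; rde-4 and 0.0557% ± 0.0098 in age-1 (SD, n = 3 each, exact p = 0.1 for either class). Neither of these last classes overlapped between the strains. Reads of the 136 genes opposite pseudogenes took 2.39% ± 0.697 in age-1; rde-4 and 0.592% ± 0.383 in age-1 (SD, n = 3 each, exact p = 0.1), also without overlap. The shares of 1 library sum to 100%, so a fall in 1 class and a rise in another are not independent.

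**Figure D1:**
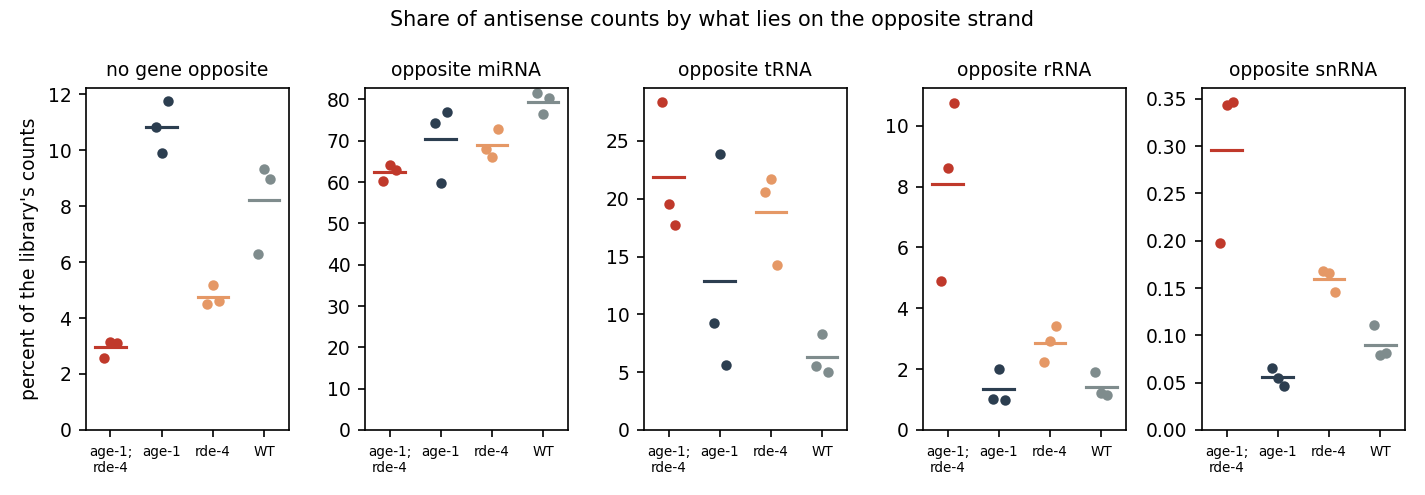
Percent of each library's antisense counts (y axis, linear, from 0) at genes with no gene opposite and at genes opposite miRNA, tRNA, rRNA and snRNA genes, in age-1; rde-4, age-1, rde-4 and WT. Points are libraries and lines are means of 3. The class with no gene opposite lies between 2.58% and 3.16% in age-1; rde-4 and between 9.88% and 11.8% in age-1, and the tRNA panel shows age-1 replicate 2 at 23.9%.

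These shifts set how changes of single genes have to be read. Of the 32238 genes, 10446 had no count in any of the 6 libraries and 4003 passed the filter on low counts. Scaling by trimmed means (TMM), which takes the bulk of tested genes as unchanged, placed the median log2 fold change at 0.02, whereas scaling by library totals placed it at -1.32, a shift of 1.34. Under TMM, 1201 genes (30.0% of those tested) were lower and 763 (19.1%) were higher in age-1; rde-4 than in age-1 at an adjusted p below 0.05 (edgeR quasi-likelihood F test), and under library totals 2078 (51.9%) were lower and 228 (5.7%) higher. All 1201 genes lower under TMM were also lower under library totals. Of the 763 higher genes, 228 were higher under both scalings and 181 had a log2 fold change below 0 under library totals. A fall below is therefore a fall under either scaling unless stated otherwise. Fold changes are on the TMM scale, where a gene with equal raw counts in both strains has a value near 1.34. The filter also leaned to age-1: 1854 of the 4003 genes reached the count minimum in all 3 age-1 libraries and not in all 3 double mutant libraries, and 132 the reverse.

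**Figure D2:**
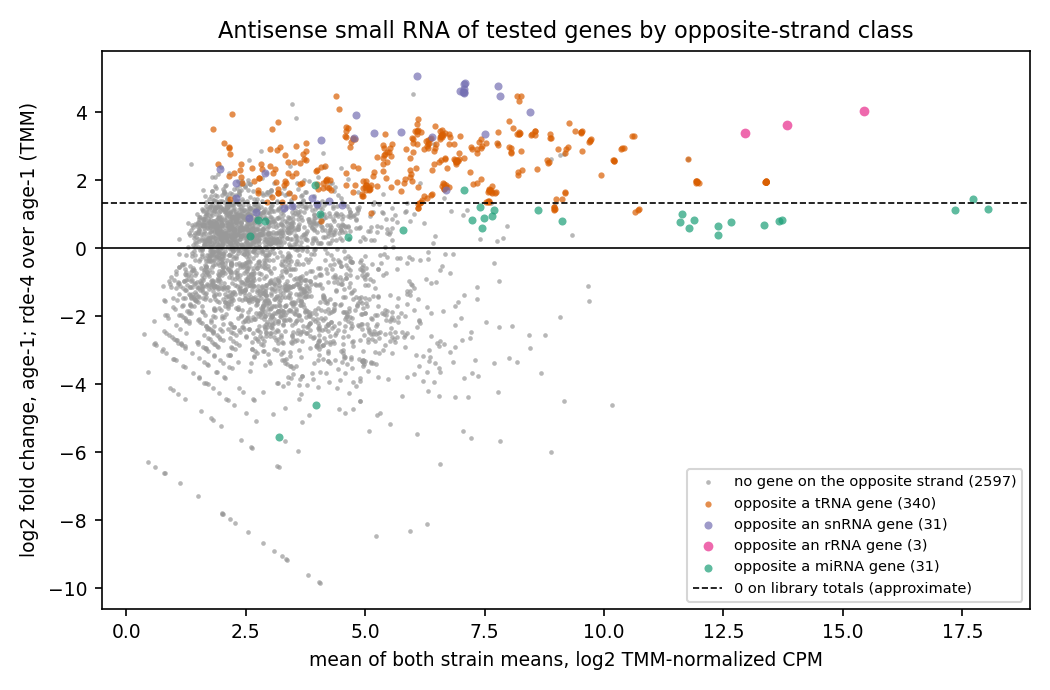
Log2 fold change of age-1; rde-4 over age-1 on the TMM scale (y axis) against mean abundance in log2 TMM-normalized CPM, counts scaled to library size (x axis) for tested genes, coloured by what lies opposite them. The dashed line, at 1.34, is where a gene with an unchanged share of the library would lie. Genes opposite tRNA, snRNA and rRNA genes sit above 0, and genes with nothing opposite extend downward. Genes opposite miRNA genes have a median of 0.82, between 0 and the dashed line, and range from -5.54 to 1.86. Points of genes with 0 counts in the double mutant are placed by the prior count of the fit.

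The known targets of ERGO-1 lost nearly all of their antisense reads. The 10 listed targets in the table summed to 16, 18 and 8 counts in the age-1; rde-4 libraries, against 1834, 1841 and 2339 in the age-1 libraries. All 10 were tested and lower, beside 30.0% lower over all tested genes. Their log2 fold changes had a median of -4.96, beside 0.02 over all tested genes. None of the 10 reached the count minimum in all 3 double mutant libraries.

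K02E2.6, a protein-coding gene on chromosome V (20380561 to 20382036 in WBcel235), had 1, 1 and 0 counts in age-1; rde-4 and 560, 597 and 700 in age-1. This is a ratio of 354-fold lower after TMM scaling, with a 95% counting interval of 97.8 to 2922. The pseudogene W04B5.1 on chromosome III had 1, 0 and 0 counts in the double mutant and 244, 295 and 611 in age-1, reads it shares with the overlapping gene W04B5.8. C44B11.6 had no count in any double mutant library and 188, 131 and 93 in the age-1 libraries, at least 52.3-fold lower when the double mutant is set to a floor of 3 counts over the group. Y37E11B.2 had 3, 2 and 1 counts against 379, 393 and 446 (log2 fold change -6.21, SE 0.53, adjusted p = 2.6e-07). The smallest falls of the list were at the neighbouring genes E01G4.7 (2.47 ± 1.31 against 22.9 ± 3.89 TMM-normalized CPM, SD, n = 3 each, log2 fold change -3.21, adjusted p = 3e-05 by edgeR's quasi-likelihood test) and E01G4.5 (1, 5 and 0 counts against 36, 38 and 51, log2 fold change -2.95, adjusted p = 0.0014). No double mutant library overlapped an age-1 library at any of these genes. Over all tested genes, 34.7% had a lower mean without overlap of the libraries in TMM-normalized CPM.

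Loci that went silent reached beyond that list. With values in view, and so as a description only, 53 genes had at most 3 counts over the 3 double mutant libraries and at least 100 over the 3 age-1 libraries, and 16 of them had none in the double mutant. By annotation 27 were protein-coding, 12 long intergenic non-coding RNA (lincRNA) genes, 10 pseudogenes, 3 other non-coding RNA genes and 1 a small nucleolar RNA gene. Exons of 9 of the 53 overlap another gene on the same strand, so some reads are counted at both genes, as at linc-59 and F57G8.14. They lay on all 6 chromosomes, with 12 each on III and V, 9 on IV, 8 on I, 7 on II and 5 on X. Their median count over 3 libraries was 1 in age-1; rde-4, 183 in age-1, 3 in rde-4 and 174 in WT.

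The largest falls among genes with nothing opposite were at such loci. The pseudogene ZK380.5 on chromosome X had 0 counts in all double mutant libraries and 139, 183 and 184 in age-1, at least 64.2-fold lower. Y17D7C.6 had 0 counts against 158, 194 and 138, at least 62.2-fold lower, and Y17D7B.4 had 0 counts against 84, 81 and 127, at least 37.1-fold lower. Y17D7C.6 and Y17D7B.4 lie near each other on chromosome V, within 18709810 to 18776687. On chromosome III the lincRNA genes linc-19 (3150222 to 3151352) and linc-45 (3151809 to 3152607) neighbour C44B11.6 (3153148 to 3153336), and H09G03.1, H09G03.4 and H09G03.5 lie within 3226514 to 3231647, each with at most 2 counts over the double mutant.

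As a class, lincRNA genes held 445, 601 and 507 counts in age-1; rde-4 and 3193, 3065 and 3025 in age-1. Of 170 genes named linc in the table, 110 had a count and 22 passed the filter. Of these 22, 14 fell and 4 were higher under TMM, none of them under library totals. The median log2 fold change was -4.64, or -3.08 with genes at 0 counts set to their bound. Only 6 of the 22 reached the count minimum in all 3 double mutant libraries, and the share of lower genes over all tested genes was 30.0%. In a fit restricted to genes with nothing opposite, 13 linc genes were tested, of which 6 were lower and 6 higher, with a median of -0.35. Without double mutant replicate 2, 2 of the linc genes were higher. The largest loss was at linc-59, with 1, 0 and 0 counts against 779, 447 and 324, a ratio of 590-fold lower with a 95% counting interval of 106 to 23332. Those reads are also counted for the pseudogene F57G8.14, which covers the same bases, and piRNA genes lie opposite linc-59 and linc-22; linc-22 also overlaps F47E1.19 on its own strand. Next by abundance, linc-22 on X fell to 4, 5 and 2 counts, against 535, 372 and 578 (log2 fold change -5.66, SE 0.51, adjusted p = 3.2e-07).

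Genes of the sperm also lost antisense reads. The pooled sperm lists held 90 genes of the table, without melo-3, dct-9 and the nematode-specific peptide genes. These genes summed to 1261, 773 and 792 counts in age-1; rde-4 and 11696, 10030 and 9516 in age-1. Of these, 74 passed the filter, of which 53 fell and 1 was higher, with a median log2 fold change of -1.93, beside 30.0% lower and 19.1% higher over all tested genes. Of the 74, 17 reached the count minimum in all 3 double mutant libraries. In a fit with no filter, which takes every gene with a count, 65 of the 90 were lower and none higher. Of the 21792 genes tested in it, 7.3% were lower and 1.73% higher. Only 4003 of the 21792 passed the filter, against 74 of the 90, so these shares are over unlike sets.

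The genes of the Major Sperm Protein (MSP), the cytoskeletal protein that drives sperm crawling and also signals to the oocyte, held fewer reads in sum. Their 35 copies summed to 263, 126 and 96 counts in the double mutant and 1865, 1139 and 1480 in age-1. Of 30 tested, 22 fell and none was higher, with log2 fold changes of -3.82 to -1.11 over the 30, beside 30.0% lower over all tested genes. None of the 30 reached the count minimum in all 3 double mutant libraries, so each passed the filter through age-1, where it was high. The copies are nearly identical and a read could be placed at up to 50 sites, so the split among copies is uncertain. Summed to 1 feature, the MSP genes gave a log2 fold change of -1.78 with an SE of 0.47, past the threshold (adjusted p = 0.0044). Single copies ranged in abundance: msp-33 had 13, 2 and 8 counts against 174, 96 and 111 in age-1, and msp-57 had 1 in each double mutant library against 56, 21 and 39.

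The small MSP-domain proteins of sperm class P followed the same pattern. All 11 of the tested class P genes fell, beside 30.0% lower over all tested genes. Of the 11, 5 reached the count minimum in all 3 double mutant libraries. The 12 genes of the list summed to 497, 252 and 274 counts in age-1; rde-4 and 4209, 3113 and 3283 in age-1. ssp-16 on chromosome I (6102067 to 6102396) had 88, 24 and 23 counts in the double mutant and 1048, 831 and 738 in age-1 (log2 fold change -2.82, SE 0.53, adjusted p = 0.0003). Its double mutant replicate 1 was above the other replicates and still far below every age-1 library. ssp-11 had 5, 5 and 2 counts against 161, 112 and 136 (log2 fold change -3.68, adjusted p = 8.8e-06), the smallest p of the class. ssp-34, the most abundant, had 262, 130 and 169 against 1537, 863 and 909 and the smallest fall (log2 fold change -1.15, SE 0.43, adjusted p = 0.034). That call was lost without age-1 replicate 1, double mutant replicate 2 or double mutant replicate 3 (adjusted p = 0.23, 0.17 and 0.14 by edgeR).

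The 4 class Q genes, ssq-1 to ssq-4, also all fell, beside 30.0% lower over all tested genes. Of the 4, 1 reached the count minimum in all 3 double mutant libraries. ssq-1 had 36, 21 and 13 counts in age-1; rde-4 and 264, 250 and 210 in age-1 (log2 fold change -1.94, SE 0.44, adjusted p = 0.0013). The MSP-domain genes ssp-16, melo-3 (C25D7.1) and dct-9 belong to a group that the study picked on the mRNA of these same strains, and it followed them by qPCR. From these same small RNA libraries it also reported fewer antisense siRNAs over the group after loss of rde-4 (DESeq2, called at p below 0.05). The direction at ssp-16, melo-3 and dct-9 is therefore not independent evidence. Of these, ssp-16 and melo-3 fell and dct-9 did not pass. C25D7.1 had 26, 21 and 18 counts against 184, 258 and 148 (log2 fold change -1.77, adjusted p = 0.0013). For dct-9 the counts were 22, 12 and 18 against 89, 111 and 67, without overlap in raw counts (log2 fold change -0.95, SE 0.41, adjusted p = 0.063), and it was lower under library totals (adjusted p = 7.9e-05) and without age-1 replicate 3 or double mutant replicate 1 (adjusted p = 0.018 and 0.015).

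All 5 genes of the list of sperm phosphatases, PDZ proteins and the sperm histone were lower (median -3.48), beside 30.0% lower over all tested genes. Of the 5, 2 reached the count minimum in all 3 double mutant libraries. smz-1, a PDZ-domain protein of sperm, had 43, 16 and 13 counts in age-1; rde-4 and 1708, 1247 and 1102 in age-1 (log2 fold change -4.38, SE 0.54, adjusted p = 4.5e-06). gsp-3, a PP1 phosphatase of sperm, had 5, 1 and 4 counts in the double mutant and from 87 to 108 in age-1 (log2 fold change -3.48, adjusted p = 3.2e-05). The sperm chromatin genes spch-1, spch-2 and spch-3 stood on no list and were picked for their abundance after their values were seen. spch-1 had 127, 83 and 63 counts against 5270, 5608 and 5701 (log2 fold change -4.49, SE 0.49, adjusted p = 2.2e-06).

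Of the 7 tested genes for sperm organelles, 5 fell, beside 30.0% lower over all tested genes, and 1 of the 7 reached the count minimum in all 3 double mutant libraries. spe-10, a palmitoyltransferase that acts at the membranous organelles, had 8, 6 and 7 counts in the double mutant and 230, 388 and 225 in age-1 (log2 fold change -3.91, SE 0.45, adjusted p = 2.9e-06). spe-4, the sperm presenilin, and spe-6, a casein kinase I family member, also fell (log2 fold changes -3.83 and -2.92). fer-1, the founding ferlin, which acts in membranous organelle fusion, did not pass under TMM: it had 5, 8 and 8 counts against 22, 19 and 15 (log2 fold change -0.04, adjusted p = 0.95). Under library totals all 7 tested genes of this list were lower, fer-1 among them, beside 51.9% over all tested genes.

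Lists of other sperm steps gave counts of falls near the 30.0% over all tested genes. For spermatocyte fate and division 2 of 5 tested genes fell, and the strongest was wee-1.3, a kinase of the cell cycle, with 11, 11 and 13 counts against 291, 281 and 397 (log2 fold change -3.38, SE 0.40, adjusted p = 3.7e-06). Of 7 tested genes for spermatid activation, 3 fell (spe-8, spe-19 and spe-46) and spe-29 was higher under TMM but had a log2 fold change of -0.01 under library totals. The reads of spe-29 lie opposite gon-1, and its rise was lost without age-1 replicate 1 or double mutant replicate 1 (adjusted p = 0.092 and 0.051). Of 5 tested genes for fertilization only spe-11, a sperm-supplied factor needed by the embryo, fell under TMM (8, 13 and 12 counts against 127, 140 and 68, log2 fold change -1.97, adjusted p = 0.0011). All 5 were lower under library totals, where 51.9% of all tested genes were lower. Without age-1 replicate 3 or double mutant replicate 1, 2 fertilization genes were lower.

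Nematode-specific peptide genes, short genes of unknown function of which the nspd family is known from sperm, fell in 12 of 13 tested cases, beside 30.0% over all tested genes. None of the 13 reached the count minimum in all 3 double mutant libraries, so each passed the filter through age-1. Their 67 members summed to 42, 29 and 26 counts in age-1; rde-4 and 791, 554 and 604 in age-1, but 54 of the 67 did not pass the filter. nspd-1 had 0 counts in every double mutant library and 50, 40 and 44 in age-1, at least 17-fold lower. These copies are also similar to each other.

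**Figure D3:**
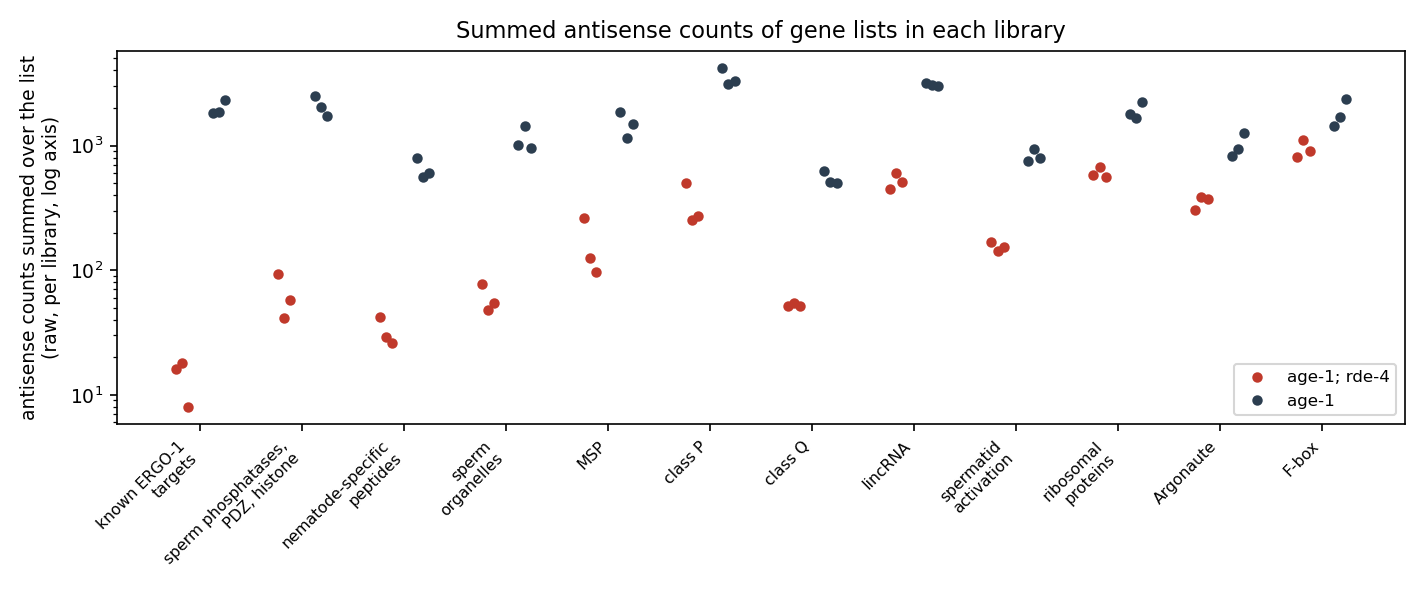
Raw antisense counts summed over each gene list (y axis, log scale), 1 point per library, with age-1; rde-4 to the left of age-1. In 12 lists the 3 double mutant sums lie below the 3 age-1 sums. The gap is widest for the known ERGO-1 targets (8 to 18 counts against 1834 to 2339) and narrowest for the F-box families.

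The 2 Argonaute genes of the sperm pathway were themselves loci of lost small RNA. alg-3 had 17, 9 and 6 antisense counts in age-1; rde-4 and 112, 143 and 87 in age-1 (log2 fold change -1.99, SE 0.46, adjusted p = 0.0016). alg-4 had 11, 10 and 6 against 128, 170 and 123 (log2 fold change -2.55, SE 0.42, adjusted p = 8.3e-05). Of the 15 tested Argonaute genes these 2 fell, beside 30.0% lower over all tested genes, and the other 13 did not pass. The median of the list was 0.32 under TMM. It was -1.05 under library totals, where 7 were lower, beside 51.9% of all tested genes. The germline Argonaute csr-1 had 47, 40 and 43 counts against 136, 118 and 149 (log2 fold change -0.23, adjusted p = 0.60, and -1.59 under library totals).

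Genes of the remaining RNAi machinery moved little beyond the scaling. Over all tested genes 30.0% were lower and 19.1% higher under TMM. Of 21 tested here, henn-1, the methyltransferase that protects small RNA ends, and deps-1, a P granule protein, fell. The double-stranded RNA channel gene sid-1 and the helicase gene eri-6 were higher under TMM. Neither rise held under library totals, and eri-6 turned to a log2 fold change of -0.43 and lost its call without any single library but age-1 replicate 3. deps-1 did not pass without age-1 replicate 1 (adjusted p = 0.052). henn-1 had 3, 4 and 5 counts in the double mutant and 36, 80 and 49 in age-1 (log2 fold change -2.36, adjusted p = 0.0010), reads that also lie over fbxl-1 and opposite C02F5.14. Of 22 insulin/IGF-1 signaling genes 5 were tested and none passed under TMM, or 1 without age-1 replicate 2 or double mutant replicate 1. The median log2 fold change of the 5 was -0.26, and -1.62 under library totals, where 3 were lower, beside 51.9% of all tested genes. daf-16 had 4, 6 and 9 counts against 12, 9 and 19 and was not tested.

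Markers of other cell types gave few counts. No listed marker of the intestine (vitellogenins included) or of neurons passed the filter; these lists summed to 15 to 26 and 25 to 42 counts in age-1; rde-4 and to 19 to 74 and 34 to 70 in age-1. Of 12 tested oocyte and hermaphrodite germline genes 1 fell and 1 was higher, beside 30.0% lower and 19.1% higher over all tested genes. The median of this list was 0.31 under TMM and -1.01 under library totals. The fall was at oma-1, and it passed only without age-1 replicate 3 among the fits that left out 1 library; the rise, at fem-3, was lost without double mutant replicate 2 (adjusted p = 0.12). Of 5 tested muscle genes 2 fell, both actin genes, and 1 was higher, ttn-1, which encodes the giant muscle protein titin (12, 30 and 22 counts against 6, 10 and 39, log2 fold change 1.62, adjusted p = 0.023, and 0.28 under library totals). The ttn-1 call was lost without age-1 replicate 1 or 2 or double mutant replicate 2 (adjusted p = 0.078, 0.078 and 0.076 by edgeR). act-2 had 29, 21 and 25 counts against 478, 368 and 370 (log2 fold change -2.62, SE 0.40, adjusted p = 3.8e-05). Ribosomal protein genes counted 10 lower and 6 higher of 43 tested under TMM, below the 30.0% and 19.1% over all tested genes. Under library totals 23 of the 43 were lower and none higher, beside 51.9% lower and 5.7% higher over all tested genes. rpl-41.2 had 7, 5 and 2 counts against 297, 270 and 285 (log2 fold change -4.50, SE 0.49, adjusted p = 2.0e-06). The count of lower ribosomal protein genes was 5 without double mutant replicate 2, and leaving out any library but age-1 replicate 3 left 2 or 3 of them higher. F-box genes counted 5 lower and 9 higher of 27, beside 30.0% and 19.1% over all tested genes, with 0 higher under library totals. The higher count was 1 without age-1 replicate 2, 4 without age-1 replicate 1, and 3 and 5 without double mutant replicates 2 and 3. BTB and MATH genes counted 2 lower (1 without age-1 replicate 1) and 3 higher of 13, beside the same 30.0% and 19.1%. Under library totals 0 of them were higher. Histone genes had 1 lower of 6 and none higher, though 2 were higher without age-1 replicate 3 and 1 without double mutant replicate 1 or 2. Of 3 tested collagens 2 were higher, 0 under library totals and 0 without double mutant replicate 2, and 4 without age-1 replicate 3.

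The 25 most abundant loci of age-1 with nothing opposite held 20.7% of the counts of that class in age-1; rde-4 and 24.3% in age-1. Of these 25, 20 fell, 2 were higher and 3 did not pass, beside 36.6% lower and 8.86% higher of all 2597 tested genes with nothing opposite. They were chosen by a high level in age-1, which favours falls. F43E2.6, a gene of unnamed function on chromosome II (7366455 to 7368861), was the most abundant: it had 238, 131 and 135 counts in age-1; rde-4 and 11530, 9328 and 12454 in age-1 (log2 fold change -4.61, SE 0.52, adjusted p = 2.8e-06). ZK1010.5 had 29, 31 and 23 against 3859, 4728 and 5640 (adjusted p = 2.2e-07). C38C10.3 had 1426, 639 and 763 counts against 4141, 5628 and 7071, without overlap. It did not pass under TMM (log2 fold change -1.10, adjusted p = 0.055) but was lower under library totals (log2 fold change -2.53, adjusted p = 0.00013) and without double mutant replicate 1 (adjusted p = 0.0046).

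**Figure D4:**
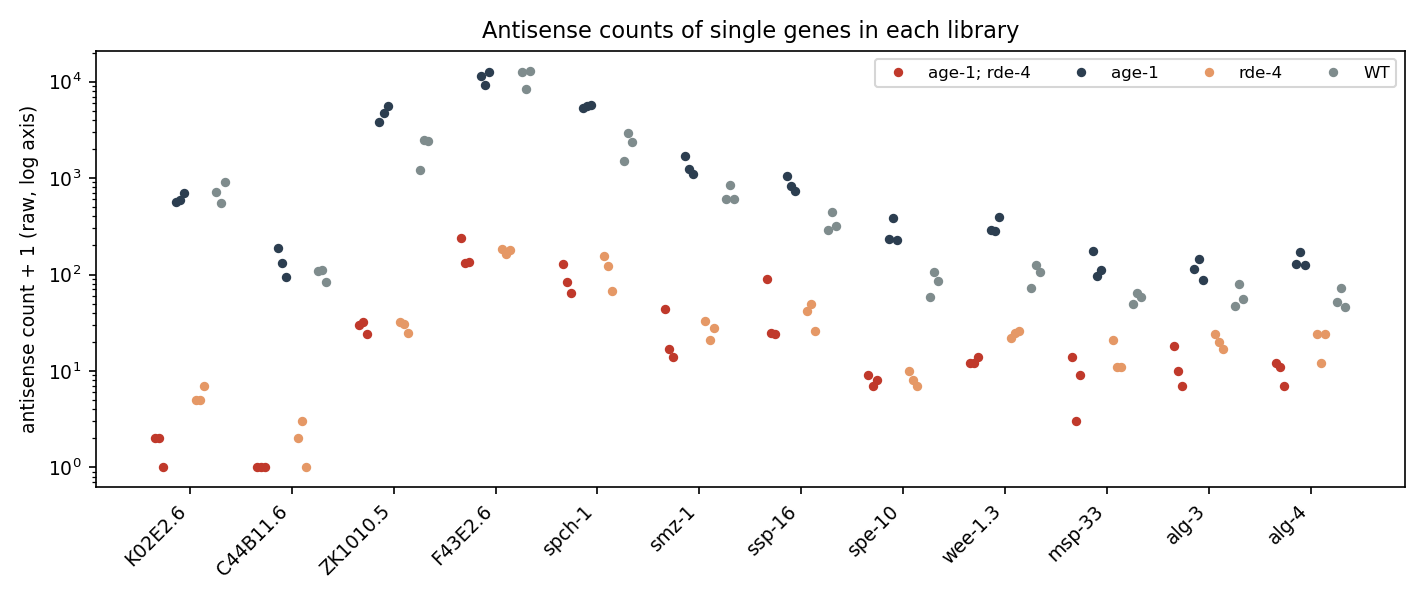
Raw antisense count plus 1 (y axis, log scale) of 12 single genes, 3 libraries per strain, in the order age-1; rde-4, age-1, rde-4 and WT. At each gene the double mutant libraries lie below the age-1 libraries; spch-1, for example, lies at 63 to 127 counts in age-1; rde-4 and at 5270 to 5701 in age-1.

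The falls were spread over the autosomes. Among tested genes with nothing opposite, 41.5% were lower on IV, 38.4% on I, 37.6% on V, 35.6% on II and 31.7% on III, beside 36.6% over all 2597 of them. On X 15 of 82 (18.3%) were lower and 24 (29.3%) higher, 3 of these tested genes being higher under library totals. The difference between X and the autosomes was not tested.

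Rises that held under both scalings sat mostly opposite structural RNA genes. Over all tested genes 19.1% were higher under TMM and 5.7% under library totals. Of 340 tested genes opposite tRNA genes, 331 were higher under TMM, 181 under library totals, and none was lower under either. The summed share of reads opposite tRNA genes nonetheless overlapped between the strains, with age-1 replicate 2 at 23.9% (exact permutation p = 0.3). Of 31 opposite snRNA genes 28 were higher, 18 under library totals, and all 3 opposite rRNA genes were higher under both. The 6 largest of these rises were all opposite snRNA genes, and the rRNA and tRNA examples here were chosen after their values were seen. F31C3.14, opposite rrn-3.1, had 110336, 162433 and 215935 counts in age-1; rde-4 and 17475, 42871 and 17293 in age-1 (log2 fold change 4.03, SE 0.70, adjusted p = 0.00014). C05G6.5, opposite an snRNA gene, had 168, 272 and 329 against 20, 19 and 20 (log2 fold change 5.06, SE 0.43, adjusted p = 2.6e-07). F22F1.6, opposite a tRNA gene on X, had 959, 1190 and 1250 against 139, 142 and 115 (log2 fold change 4.48, adjusted p = 5.2e-07). By annotation these loci overlap structural RNA genes on the opposite strand, but where in the locus a read lies was not checked. Copies of these genes are nearly identical.

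Rises with nothing annotated opposite were few, 12 of 2597 under library totals. The largest under TMM was at the pseudogene C06E4.22, with 77, 335 and 325 counts in the double mutant and 28, 12 and 40 in age-1 (log2 fold change 4.53, SE 0.55, adjusted p = 4.2e-06). nhr-32, a nuclear hormone receptor gene on X, had 12, 60 and 61 against 2, 3 and 19 (log2 fold change 3.82, adjusted p = 0.00011), so that in raw counts double mutant replicate 1 lay below age-1 replicate 3. The 5S rRNA genes rrn-4.2, rrn-4.3 and rrn-4.4 rose as well, with 1181, 2425 and 2231 counts at rrn-4.2 against 701, 848 and 655 (log2 fold change 2.76, SE 0.43, adjusted p = 4.4e-05). In all of these, double mutant replicate 1 was the lowest of its strain.

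Whether loss of RDE-4 acted differently with and without age-1(hx546) was tested as the difference between the 2 effects over all 12 libraries. In WT worms loss of RDE-4 lowered 767 of 4797 tested genes (16%) and raised 516 (10.8%) under TMM. Of 3557 genes tested in both backgrounds, 700 were lower in both, which is 70.0% of those lower with age-1(hx546) and 93.5% of those lower without it. Of 5843 genes, 9 (0.154%) differed between the backgrounds (edgeR quasi-likelihood F test of the interaction), and 515 had an unadjusted p below 0.05. The effect was lower in the age-1 background at 1 of the 9 and higher at 8, whereas with library totals it was lower at 62 genes and higher at 2, and with scaling by miRNA-opposite counts lower at 71 and higher at 2. The lists of the sperm and the ERGO-1 targets held none of the 9.

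The most marked difference was at linc-18 on chromosome I (12215538 to 12216323). It had 0 counts in the 3 age-1; rde-4 libraries and 63, 52 and 70 in age-1, but from 70 to 124 in the 3 rde-4 libraries and 20, 39 and 28 in WT (adjusted p of the difference 2.8e-06). Loss of RDE-4 thus went with at least 23.5-fold fewer reads in the age-1 background and with more reads in the WT background (log2 fold change 2.23, adjusted p = 0.00040). Its reads lie opposite sdz-14, a protein-coding gene, on whose strand they are sense. 7 further genes lie opposite snRNA genes and were raised by more in the age-1 background, for example W07G1.17, with 353, 549 and 618 counts in age-1; rde-4, 48, 47 and 42 in age-1, 211, 166 and 207 in rde-4 and 98, 53 and 91 in WT (adjusted p of the difference 0.030). None of these 7 passed with scaling by RLE size factors.

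**Figure D5:**
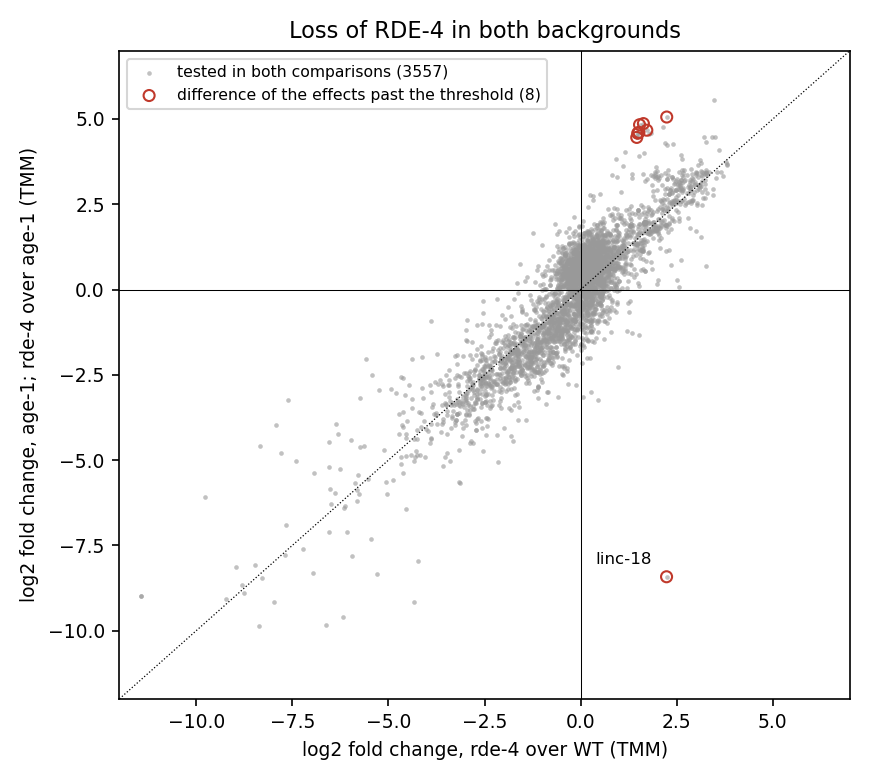
Log2 fold change of age-1; rde-4 over age-1 (y axis) against that of rde-4 over WT (x axis), both on the TMM scale, for the 3557 genes tested in both. Circles mark 8 genes whose effects differed by the interaction test: linc-18 at the lower right and 7 genes opposite snRNA genes at the upper right. The dotted line is equality, and genes with 0 counts in a strain are placed by the prior count.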

How the data were processed

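Small RNA was taken from young adults of 4 strains (3 libraries each). Libraries had inserts of 18 to 40 bp per the labels; per the study's methods they were enriched for 5′ monophosphates, read as 50 bp single ends and mapped with Bowtie through QuasR, up to 50 hits a read, to WBcel235, tool versions being not given in the sources used here. What the authors deposited are raw counts of antisense reads per gene; no normalization was applied by the authors. Here counts of 6 libraries were scaled by TMM and tested by edgeR 4.0.16 (R 4.3.3, glmQLFit and glmQLFTest, filterByExpr, count minimum 10) with Benjamini-Hochberg adjustment at 0.05; the interaction used 12 libraries. Opposite-strand genes came from the Ensembl annotation of WBcel235, which placed 30636 of 32238 genes. Intervals are 95% exact and cover counting error only; the floor is 3 counts over a group. Single shares were compared by exact permutation tests. Named genes follow a rule (the 8 largest falls and 4 largest rises with nothing opposite, the 6 largest rises opposite structural RNA genes, up to 4 members of each of 24 gene lists with the smallest p, the 6 most abundant genes with nothing opposite that did not pass, 6 genes a direction of the interaction, and genes of the study's pathways). Other named genes, such as F31C3.14, F22F1.6, rrn-4.2, fer-1, spe-6, csr-1, ssp-34, F43E2.6, ZK1010.5, E01G4.5 and E01G4.7, and the loci given as neighbours or overlaps, were chosen after their values were seen. The members and lists were chosen with earlier results of these data known. Alternatives were DESeq2 1.42.0, other scalings, no filter, a replicate block and leaving out each library. Code was tested on simulated data. The p-values measure the spread between populations labelled as biological replicates.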

Additional observations from a re-analysis of the deposited data

Results flagged for a closer look

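The effect of losing RDE-4 differed between the age-1 and WT backgrounds at 9 genes by the interaction test, and their adjusted p-values are given here. At linc-18 it was 2.8e-06, with the reads lost in the age-1 background and raised in the WT background, and it passed in all 12 fits that left out 1 library. The 7 genes opposite snRNA genes had adjusted p-values of 0.030 (W07G1.17, Y47H9A.5, Y54G9A.14 and R05D7.8), 0.041 (F08G2.17) and 0.042 (F15H9.9 and C05G6.5). None of these 7 passed in any of the 12 fits that left out 1 library, where their adjusted p ranged from 0.053 to 0.36. Y110A2AL.1 had 6, 9 and 8 counts in age-1; rde-4, 13, 2 and 16 in age-1, none in rde-4 and 16, 9 and 21 in WT (adjusted p of the difference 0.030), and it passed in 1 of the 12 such fits.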

How the results depend on the processing

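Scaling had the largest effect of the alternatives run. The counts of lower and higher genes, 1201 and 763 with TMM, were 2078 and 228 with library totals, 1997 and 248 with scaling by counts opposite miRNA genes, 1591 and 377 with no filter on low counts, 1177 and 431 by DESeq2 and 735 and 558 with only genes with nothing opposite, where fewer genes were tested. Leaving out each library gave 1002 to 1370 lower and 577 to 991 higher. The ratio of shares at genes with nothing opposite was 0.305 relative to counts opposite miRNA genes and 0.262 to 0.290 without each library. The 9 genes whose effect differed between backgrounds became 1 with RLE, 64 with library totals, 73 with miRNA-opposite scaling (1 lower and 8 higher turning to 62 and 2, and 71 and 2), 24 by DESeq2, 0 with only genes with nothing opposite (329 at an unadjusted p below 0.05, edgeR) and 1 to 3 without each library. Of 80 named genes, the directions of eri-6 (-0.43 with library totals, -0.24 with miRNA-opposite scaling) and spe-29 (-0.010 with library totals) turned. All 10 ERGO-1 targets and all 4 class Q genes fell under each alternative that tested them together, while the count of lower MSP genes ran from 15 to 31. Under the scalings by totals or miRNA-opposite counts, 2078 (51.9%) and 1997 of all 4003 tested genes were lower. Beside these, lower genes came to 6 to 7 of 15 Argonaute genes and 5 to 6 of 21 of the RNAi machinery. They came to 2 to 3 of 5 insulin/IGF-1 signaling genes, 3 of 12 of the oocyte list and 5 of 5 fertilization genes. For spermatocyte fate they were 3 to 4 of 5, and for ribosomal protein genes 21 to 23 of 43. Histone genes counted 4 of 6, F-box genes 8 of 27, and BTB and MATH genes 4 of 13. With no filter 23 of 110 lincRNA and 4 of 8 fertilization genes were lower, beside 1591 of all 21792 genes in that fit. Most of those 21792 did not pass the filter. Libraries that share a replicate number deviated with correlations of 0.15, -0.19 and 0.15. With 3 libraries a strain, such values cannot settle whether the numbers pair them. A replicate block gave 1211 lower and 798 higher genes and 24 differences between backgrounds. Placing opposite genes by RefSeq was not run, since the table used gives no strand. Low counts limit the double mutant: 1854 of 4003 tested genes reached the count minimum in age-1 and not in all 3 of its libraries.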

Other observations

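Some of the loci left with at most 3 counts in the double mutant also had few counts in WT. W01B6.4 had 1, 1 and 0 counts in age-1; rde-4, 40, 32 and 37 in age-1, 0 in each rde-4 library and 3, 7 and 5 in WT. For apm-1, a subunit of a clathrin adaptor, the counts were 1, 0 and 0 in the double mutant, 24, 34 and 44 in age-1, 3, 1 and 0 in rde-4 and 7 in each WT library. rfip-1 had 1, 0 and 2 counts in the double mutant, 31, 48 and 26 in age-1, 1 in each rde-4 library and 8, 9 and 5 in WT. These genes were chosen after their values were seen, and the difference between age-1 and WT was not tested here. C44B7.11, with nothing annotated opposite, was the most abundant such locus to rise, with 10064, 9084 and 15178 counts in age-1; rde-4 and 3999, 8850 and 1646 in age-1 (log2 fold change 2.62, SE 0.60, adjusted p = 0.0014).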
